A study of Rattus norvegicus with 4 samples.

Results

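Ribosome footprints on 37 genes of the endothelium, the cell layer that lines blood and lymphatic vessels and the chambers of the heart, were followed in cultures of rat heart cells. The genes were picked by name, and each was represented by its annotated coding ORF (open reading frame) with most footprints summed over the 4 libraries. Of the 37 genes, 36 had an annotated ORF among the 13694 genes that had one, and 35 were tested, since Robo4 had 0 counts. Pecam1 was not listed under that name and was not analysed here. The libraries came from neonatal ventricular cardiomyocytes of Sprague-Dawley rats at postnatal day 2. The cells were cultured in serum-containing medium with phenylephrine (PE, an agonist of α1-adrenergic receptors) at 20 µM for 24 h (2 libraries) or left untreated (2 libraries). Both groups went through a plating step that takes out adherent cells other than cardiomyocytes, so the endothelial genes measure what such cells, or other cells that use these genes, left in the culture. The labels do not say how many animals were pooled or whether replicates were separate cultures, so the spread between libraries may be technical.

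Endothelial cells hold on to each other through VE-cadherin and other junction proteins. They read growth factors of the VEGF, angiopoietin, apelin and BMP families through receptors, some of which other cells carry as well. ETS factors such as ERG and FLI1, together with SOX factors of the F group, keep these genes on. In the heart the endothelium forms the dense capillary bed between cardiomyocytes, which send it VEGF and angiopoietin 1 and receive nitric oxide, neuregulin and endothelin in return.

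A footprint is a short RNA fragment protected by a ribosome. Its count on an ORF reflects mRNA abundance and translation together. Library totals ran from 11446574 to 13827599 footprints. Within a group the 2 libraries varied beyond counting error, at a chi-square of 1.61 (control) and 1.60 (PE) times its degrees of freedom. Of all P-sites (positions of the ribosome's peptidyl site, summed without library labels in the authors' table), 84.7% were in the reading frame, and on the 36 endothelial ORFs the share ran from 71.0% to 91.2%. The markers of the labelled cell type were abundant: the 14 listed cardiomyocyte markers summed to 67978 and 68098 CPM (footprints scaled to a common library size by TMM) in control and 75908 and 76448 CPM in PE. Nppa, the natriuretic peptide gene, made that sum higher in PE: without it the sums were 63005 and 63273 CPM in control and 58156 and 58578 CPM in PE. Single markers weigh on these sums too, here picked after their values were seen. Mean CPM of Myh6, at 0.19 counts per P-site, fell from 6592 to 2654. Tnnt2 rose from 5910 to 6662 and Myl3 from 5367 to 7288. The endothelial genes together came to 1094 and 1083 CPM in control and 956 and 977 CPM in PE. In such bulk cultures fewer cells of a type and less RNA per cell cannot be told apart.

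More of the endothelial genes fell than rose after PE, and many were not called. By edgeR's quasi-likelihood test of PE against control, adjusted by Benjamini-Hochberg over 12609 ORFs at a threshold of 0.05, 16 of the 35 fell, 3 rose and 16 were not called. Of all 12609 ORFs 42.7% were called in either direction. Among all 11286 genes with a tested annotated ORF the share was 45.2%, with 22.8% lower and 22.3% higher, against 45.7% lower and 8.57% higher of the endothelial genes. The 16 decreases ran from -1.36 to -0.34 on the log2 scale, and the median over all 35 was -0.37, beside -0.01 over all tested annotated ORFs. The groups did not overlap in 19 genes with lower and 5 with higher values in PE, where 35.8% and 34.5% of all tested annotated ORFs separated this way. Of the 19 called genes, all had separated groups. DESeq2 called 14 of the genes lower and 1 higher (14.8% and 14.7% of annotated ORFs), and the authors' deposited table also held 14 lower and 1 higher (14.3% and 14.2% of its annotated ORFs). Larger changes were mostly decreases: 13 genes were at least 1.5-fold lower and 2 at least 1.5-fold higher among the called, where 9.48% and 7.28% of annotated ORFs and 9.18% and 7.65% of all ORFs met that rule.

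**Figure D1:**
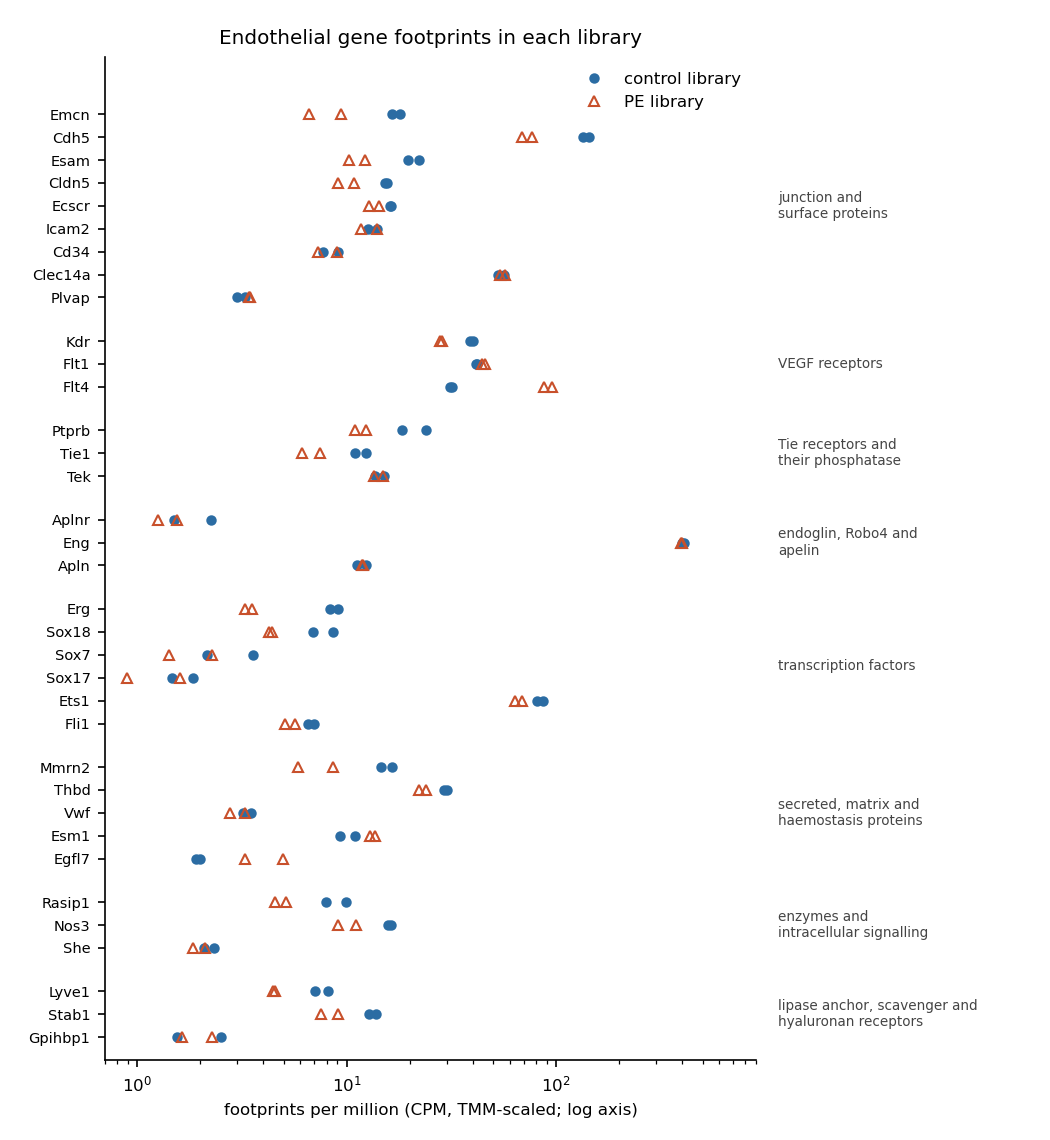
CPM (log axis) for each of the 35 tested endothelial genes, 1 symbol per library (filled circles control, open triangles PE), grouped by role. Cdh5, Emcn and Erg show both PE libraries below both control libraries, Flt4 shows the opposite at 87.4 and 95.5 against 31.7 and 31.0 CPM, and Eng, Tek and Clec14a lie nearly on top of each other.

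The largest decreases were those of the transcription factor Erg, the sialomucin Emcn and the matrix protein Mmrn2, and the largest increase was that of the lymphatic VEGF receptor Flt4. The bases before the annotated start of the first 3 are shown because they fell most. Each stretch is the 250 bases upstream of the RefSeq start on GRCr8, 5′ to 3′ on the gene's strand, with the ETS core GGAA, or TTCC where it lies on the opposite strand, in capitals.
Erg, chr11:48251567-48251816, minus strand: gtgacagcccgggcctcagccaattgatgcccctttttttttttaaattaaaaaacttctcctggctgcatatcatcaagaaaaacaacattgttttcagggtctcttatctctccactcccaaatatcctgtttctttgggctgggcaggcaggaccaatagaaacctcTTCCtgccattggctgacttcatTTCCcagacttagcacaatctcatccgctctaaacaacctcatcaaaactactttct
Emcn, chr2:228564289-228564538, plus strand: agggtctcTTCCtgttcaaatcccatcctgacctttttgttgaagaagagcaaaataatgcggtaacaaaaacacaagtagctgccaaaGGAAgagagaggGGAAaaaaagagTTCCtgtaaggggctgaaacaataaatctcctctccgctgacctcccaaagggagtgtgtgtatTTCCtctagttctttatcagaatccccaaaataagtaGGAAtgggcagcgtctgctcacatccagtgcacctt
Mmrn2, chr16:9711955-9712204, plus strand: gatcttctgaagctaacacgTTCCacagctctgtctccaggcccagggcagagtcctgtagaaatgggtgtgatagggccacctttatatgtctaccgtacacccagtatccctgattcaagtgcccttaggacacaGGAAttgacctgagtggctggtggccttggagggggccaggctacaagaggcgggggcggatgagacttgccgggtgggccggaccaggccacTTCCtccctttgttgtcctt
The Erg stretch held 2 copies of the 4-letter core, Emcn 6 and Mmrn2 3. Such a short motif is common: 93.2% of 27457 such upstream stretches held it on either strand, with a median of 3 copies, and so did 20 of the 21 endothelial genes with an entry, also with a median of 3. The match describes letters and names no bound site.

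Transcription factors of the endothelium were lower or not called. Erg, the ETS factor that sustains junction genes (Rnor_6.0 chromosome 11, 35646890 to 35749422, minus strand), had 9.04 and 8.35 CPM in control and 3.51 and 3.25 CPM in PE. Both PE values lay far below either control value, and the log2 fold change was -1.36 ± 0.21 (SE; adjusted p = 2.1e-06, edgeR). Sox18, a SOX factor of vascular and lymphatic development, fell from 6.89 and 8.63 to 4.26 and 4.39 CPM, by 0.85 ± 0.21 (adjusted p = 0.0010). Ets1, an ETS factor that fibroblasts and leukocytes also use, fell less, from 86.1 and 80.8 to 63.3 and 68.5 CPM (-0.34 ± 0.06). Their close relatives were not called: Fli1 had -0.33 ± 0.20 (adjusted p = 0.19) with separated groups, Sox7 -0.64 ± 0.35 (adjusted p = 0.14) and Sox17 -0.43 ± 0.42 (adjusted p = 0.44). All 6 factors had negative values, and the PE and control libraries overlapped for Sox7 and Sox17, whose counts were low, at 11 to 50 per library. Leaving out single libraries moved Sox7 both ways. It was called without control replicate 1, at -0.95 (adjusted p = 0.044, edgeR), and stood at -1.02 (0.062) without PE replicate 2, -0.35 (0.53) without PE replicate 1 and -0.22 (0.77) without control replicate 2.

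Junction and surface proteins split into a group that fell and a group that was not called. VE-cadherin (Cdh5, chromosome 19, 1025280 to 1051410, minus strand), the adhesive core of the endothelial junction, had 144 and 135 CPM in control and 68.5 and 76.6 CPM in PE, a 1.92-fold decrease (adjusted p = 6.8e-16, edgeR). It was the best measured of the decreases, with an SE of 0.05. Emcn, a sialomucin of capillary and venous endothelium (chromosome 2, 242634490 to 242710128), fell from 16.5 and 17.9 to 9.36 and 6.58 CPM, by 1.11 ± 0.15. Esam, a junctional adhesion protein, fell from 22.1 and 19.6 to 12.2 and 10.2 CPM, by 0.89 ± 0.13. Claudin 5 (Cldn5), a tight junction strand protein, fell from 15.3 and 15.6 to 9.11 and 10.8 CPM, by 0.63 ± 0.14. In each of these 4 genes every PE library lay below every control library.

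The other 5 tested surface proteins were not called. The C-type lectin Clec14a, at 56.2 and 52.9 CPM in control and 56.8 and 54.1 CPM in PE, had a log2 fold change of 0.03 ± 0.07, close to 0 at a depth of 652 to 742 counts per library. Icam2, a ligand of leukocyte integrins, had -0.05 ± 0.14, and the sialomucin Cd34 -0.03 ± 0.17. For Cd34 few footprints were assigned, at 0.113 counts per P-site where the median listed ORF had 1.12. Ecscr, a surface regulator of endothelial migration, had -0.25 ± 0.13 (adjusted p = 0.12) with PE below control in every library, and Plvap, which forms the diaphragms of fenestrae and caveolae, 0.13 ± 0.27.

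The 3 VEGF receptors each behaved differently. Flt4 (VEGFR3, chromosome 10, 35078782 to 35120030), the receptor for VEGF-C and VEGF-D on lymphatic and sprouting endothelium, had 31.7 and 31.0 CPM in control and 87.4 and 95.5 CPM in PE. It rose 2.92-fold (log2 1.55 ± 0.07; adjusted p = 8.2e-19, edgeR), the largest change in either direction among the 35. Kdr (VEGFR2, chromosome 14, 34727915 to 34785521), the main signalling receptor for VEGF-A, fell from 40.2 and 38.9 to 28.5 and 28.0 CPM, 1.40-fold (adjusted p = 1.9e-05). Its value rests on part of its footprints, at 0.276 counts per P-site. Flt1 (VEGFR1, chromosome 12, 9034644 to 9203284), which binds VEGF-A tightly and limits its signal, had 41.7 and 41.3 CPM in control and 44.2 and 45.8 CPM in PE, and its change of 0.12 ± 0.07 (log2) was not called (adjusted p = 0.22). These are long ORFs, and long ORFs as a class were lower after PE, with a fitted trend of 0.11 at 300 nt and -0.12 at 3000 nt on the log2 scale. With that trend removed, Flt4 stood at 1.72, Kdr at -0.31 (adjusted p = 0.0039) and Flt1 at 0.29, which then passed (adjusted p = 0.0018).

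The 3 upstream stretches are shown because, of these paralogous receptors, Flt4 rose, Kdr fell and Flt1 was not called. They are drawn and capitalised as above.
Flt4, chr10:34414584-34414833, plus strand: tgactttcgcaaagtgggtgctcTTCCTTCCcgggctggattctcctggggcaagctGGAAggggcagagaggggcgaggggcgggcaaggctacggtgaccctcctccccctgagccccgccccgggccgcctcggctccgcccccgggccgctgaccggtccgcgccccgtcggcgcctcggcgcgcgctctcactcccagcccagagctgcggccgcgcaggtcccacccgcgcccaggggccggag
Kdr, chr14:32571813-32572062, plus strand: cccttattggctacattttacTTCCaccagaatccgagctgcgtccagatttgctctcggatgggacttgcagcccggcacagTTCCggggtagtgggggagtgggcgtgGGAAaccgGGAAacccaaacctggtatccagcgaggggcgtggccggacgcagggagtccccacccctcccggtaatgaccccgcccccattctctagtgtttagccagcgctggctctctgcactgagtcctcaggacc
Flt1, chr12:12333180-12333429, plus strand: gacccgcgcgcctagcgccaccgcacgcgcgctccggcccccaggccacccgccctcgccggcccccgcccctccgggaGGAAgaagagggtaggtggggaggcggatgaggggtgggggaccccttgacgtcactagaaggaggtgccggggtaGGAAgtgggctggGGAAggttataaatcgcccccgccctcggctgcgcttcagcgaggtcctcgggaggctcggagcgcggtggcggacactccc
The ETS core occurred 3 times upstream of Flt4, 4 times upstream of Kdr and 3 times upstream of Flt1.

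**Figure D2:**
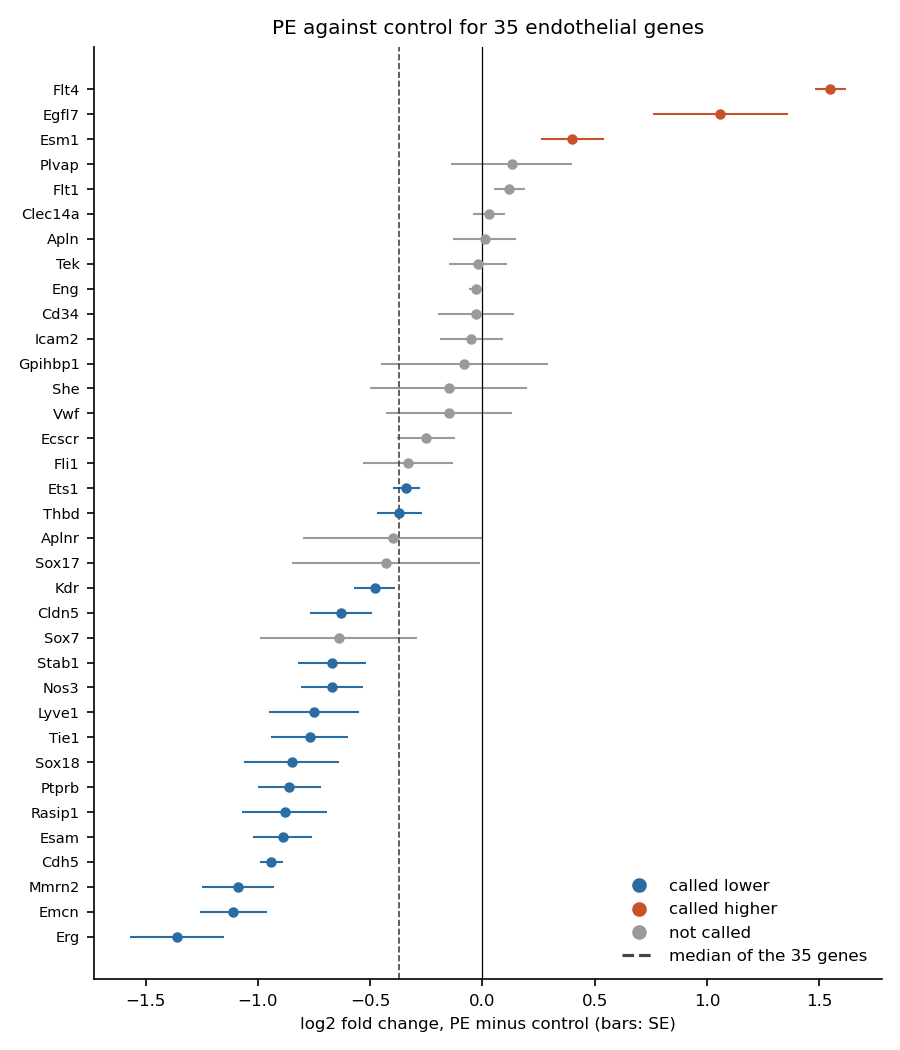
Log2 fold change of PE minus control for each tested endothelial gene, with bars of 1 SE, sorted by size and coloured by the edgeR call. The 16 genes called lower run from -0.34 (Ets1) to -1.36 (Erg), the 3 called higher are Esm1, Egfl7 and Flt4, and the dashed line marks the median of -0.37.

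Among the angiopoietin receptors, Tie1 fell and Tek was not called. Tie1, the orphan coreceptor (chromosome 5, 137294901 to 137321000, minus strand), went from 12.4 and 10.9 CPM in control to 6.10 and 7.48 CPM in PE, with a log2 fold change of -0.77 ± 0.17 (adjusted p = 0.00028, edgeR). Its value rests on part of its footprints, at 0.602 counts per P-site where the median listed ORF had 1.12. Tek, the receptor that binds angiopoietins (chromosome 5, 113726045 to 113851931), had 13.6 and 15.1 CPM in control and 13.5 and 14.9 CPM in PE (-0.02 ± 0.13). The groups were separate for Tie1 and interleaved for Tek. Ptprb (VE-PTP), the phosphatase that restrains Tek and VE-cadherin, fell from 18.3 and 24.0 to 11 and 12.4 CPM, by 0.86 ± 0.14 (adjusted p = 3.0e-06). With the length trend removed, Ptprb stood at -0.59 and Tie1 at -0.63 (adjusted p = 0.00059 and 0.0025, edgeR).

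Endoglin and the apelin pair were not called. Endoglin (Eng, chromosome 3, 11679817 to 11716837), a coreceptor for BMP9 and BMP10 that fibroblasts and smooth muscle cells carry as well, was the most abundant of the genes and made up 37.2% of their summed CPM in control. Its values were 401 and 409 CPM in control and 393 and 400 CPM in PE, and its change was -0.03 ± 0.03 on the log2 scale (adjusted p = 0.38) at 4650 to 5736 counts per library. The groups nearly touched, and with library totals in place of TMM scaling the value was -0.07 (adjusted p = 0.020). Apelin (Apln), a peptide hormone of sprouting endothelium, had 11.2 and 12.4 CPM in control and 11.8 and 12 CPM in PE, 0.01 ± 0.14. Its receptor Aplnr was near the lower limit of the assay, at 15 to 26 counts per library and -0.40 ± 0.40.

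Secreted and haemostatic proteins went both ways. Mmrn2 (multimerin 2, chromosome 16, 10727659 to 10748310), a matrix protein that binds Clec14a and VEGF-A, fell from 16.4 and 14.6 to 8.61 and 5.85 CPM, 2.13-fold (adjusted p = 1.1e-06, edgeR). Thrombomodulin (Thbd), the cofactor that turns thrombin towards protein C, fell from 30.2 and 29.1 to 23.9 and 22.1 CPM, by 0.37 ± 0.10. That call was lost in DESeq2 (adjusted p = 0.053). Egfl7, a secreted EGF-domain protein of growing vessels (chromosome 3, 4040120 to 4043668), rose from 1.90 and 2.00 to 4.93 and 3.25 CPM, 2.09-fold (adjusted p = 0.0048), on 22 to 59 counts per library. The Egfl7 call was lost without PE replicate 1 (log2 0.73, adjusted p = 0.14) and in DESeq2 (adjusted p = 0.068). Esm1 (endocan), a proteoglycan that VEGF induces at sprout tips, rose from 10.9 and 9.27 to 12.9 and 13.6 CPM, by 0.40 ± 0.14 (adjusted p = 0.027). Esm1 no longer passed without control replicate 2 (0.27, adjusted p = 0.26), without PE replicate 2 (0.36, adjusted p = 0.12), with the length trend removed (adjusted p = 0.065) or in DESeq2 (adjusted p = 0.21). Von Willebrand factor (Vwf), the platelet-binding protein stored in endothelial granules, had only 34 to 49 counts per library on an ORF of 8436 nt and a value of -0.15 ± 0.28.

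Of the intracellular members, the endothelial nitric oxide synthase Nos3 (chromosome 4, 7322426 to 7342394, minus strand) fell from 15.8 and 16.3 to 9.03 and 11.1 CPM, 1.60-fold (adjusted p = 0.00017, edgeR). With the length trend removed, the log2 fold change of Nos3 was -0.52 in place of -0.67 (adjusted p = 0.0028, edgeR). Rasip1, a Rap1 and Ras effector needed for vessel lumens, fell from 9.91 and 7.99 to 5.10 and 4.55 CPM, 1.84-fold (adjusted p = 0.00037). For both, every PE library lay below every control library. The adaptor She had 22 to 29 counts per library and -0.15 ± 0.35.

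The scavenger receptor Stab1 and the hyaluronan receptor Lyve1 are carried by lymphatic or sinusoidal endothelium and also by tissue macrophages. Stab1 fell from 12.7 and 13.8 to 9.11 and 7.56 CPM, by 0.67 ± 0.15 (adjusted p = 0.00048, edgeR). Its ORF of 6756 nt is long, and with the length trend removed the value was -0.40 (adjusted p = 0.034). Lyve1 fell from 8.10 and 7.06 to 4.43 and 4.55 CPM, by 0.75 ± 0.20 (adjusted p = 0.0031), a call that DESeq2 did not make (adjusted p = 0.059). Markers of macrophages and other leukocytes moved the same way: 9 of 11 tested fell and 0 rose in edgeR. Of all tested annotated ORFs 22.8% were lower and 22.3% higher. Ptprc stood at -0.95, Csf1r at -0.93 and Mrc1 at -0.91 (3 examples picked after their values were seen). The sum of the listed markers was 702 to 733 CPM in control and 462 to 471 CPM in PE. Of the 12 listed, Cd163 had 0 counts in all libraries. Their part in the values of Stab1 and Lyve1 was not tested. Gpihbp1, which carries lipoprotein lipase across the capillary wall, had 18 to 35 counts per library and -0.08 ± 0.37.

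Levels differed far more between these genes than any gene did between conditions. In RPKM (CPM per kilobase of ORF), the mean over the 4 libraries ran from 0.377 for Vwf to 205 for Eng, with a median of 5.34 over the 35 genes beside 14.6 over all tested annotated ORFs. After Eng came Ets1, with RPKM of 63.1 in control and 49.8 in PE, Apln with 51.1 and 51.5, Cdh5 with 60.0 and 31.2 and Clec14a with 38.9 and 39.5. The order thus put Cdh5 close to Ets1 in control and below Apln and Clec14a in PE. It holds for assigned counts only. Cd34, at 0.113 counts per P-site, and Kdr, at 0.276, can stand too low in it. Flt4, at an RPKM of 7.66 in control, was below Flt1 (10.4) and Kdr (9.82), and at 22.4 in PE it was above both (11.2 and 7.02). Kdr had 0.276 counts per P-site and Flt4 1.15, so these values do not settle the order of Flt4 and Kdr. Total counts per gene over the 4 libraries ran from 73 to 20009, with a median of 578. The weakly covered genes Sox7, Sox17, Aplnr, Vwf, She, Gpihbp1 and Plvap had SEs of 0.27 to 0.42, so changes of the size seen for Thbd or Ets1 were not detectable in them.

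**Figure D3:**
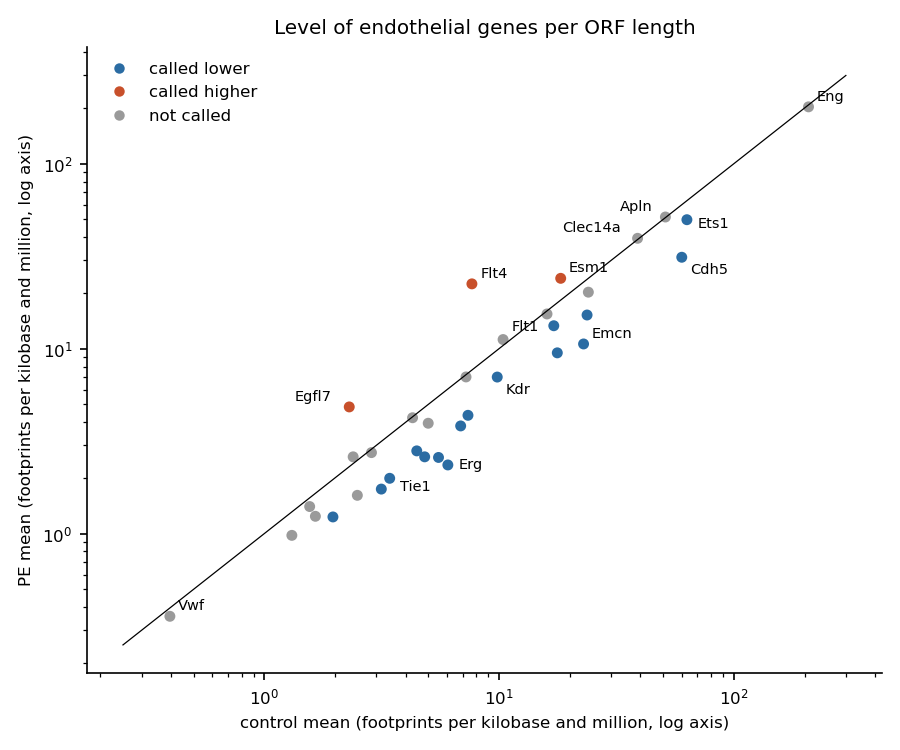
Mean level of each tested endothelial gene in PE against control, in RPKM (both axes log), with the line of equal levels and points coloured by the edgeR call. Eng stands highest at 208 and 203, Cdh5 lies below the line at 60.0 and 31.2, and Flt4 lies above it at 7.66 and 22.4.

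Genes that act with these members, chosen by role, were mixed: of 101 tested, 31 fell (30.7%) and 29 rose (28.7%), with a median of -0.04. Of all tested annotated ORFs 22.8% were lower and 22.3% higher. Of 22 tested ligands, 9 fell (40.9%) and 7 rose (31.8%). Those of the VEGF family parted. Vegfd and Vegfc, the ligands of Flt4, fell from 79.2 ± 5.63 to 28.1 ± 1.32 CPM (SD, n = 2; log2 -1.49) and from 28.9 ± 2.08 to 15.7 ± 1.30 CPM (-0.88). Placental growth factor (Pgf), a ligand of Flt1, fell by 1.13 ± 0.19 (SE). Vegfa, the ligand of Kdr and Flt1, rose slightly, from 152 ± 1.34 to 171 ± 5.33 CPM (SD, n = 2; log2 0.17; adjusted p = 0.00070, edgeR). The angiopoietins parted too, with Angpt1, the Tek agonist made by mural cells and cardiomyocytes, higher by 0.37 ± 0.06 and Angpt2, its context-dependent antagonist made by endothelium, lower by 0.89 ± 0.10.

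Among the other ligands, the Notch ligands Jag1 and Jag2 changed by -0.80 ± 0.05 and 0.55 ± 0.11 (log2, SE). Ephrin B2 (Efnb2), a marker of arterial endothelium also made by other cells, rose by 0.83 ± 0.12, and the Robo ligand Slit2 by 0.41 ± 0.05. Of 16 receptors and coreceptors, 5 fell (31.2%) and 4 rose (25%), beside 22.8% lower and 22.3% higher of all tested annotated ORFs. The neuropilins, which bind VEGFs beside Kdr and Flt4, moved apart: Nrp1 fell from 425 ± 3.27 to 274 ± 4.91 CPM (SD, n = 2) and Nrp2, the coreceptor of the VEGF-C system, rose from 209 ± 2.89 to 271 ± 3.89 CPM. The semaphorin receptor Plxnd1 and the chemokine receptor Cxcr4 fell by 0.76 and 0.82, and Ramp2, part of the adrenomedullin receptor, by 0.47. The netrin receptor Unc5b, the BMP receptor Bmpr2 and the sphingosine phosphate receptor S1pr1 rose by 0.66, 0.37 and 0.31. Notch1 fell by 0.35, a call that was lost once the length trend was removed (-0.06, adjusted p = 0.65 in edgeR), and Ramp2 was not called by DESeq2 (adjusted p = 0.12).

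Of 28 tested genes of signalling and targets, 8 fell (28.6%) and 8 rose (28.6%), beside 22.8% lower and 22.3% higher of all tested annotated ORFs. Lpl, the lipase that Gpihbp1 anchors, fell from 815 ± 6.06 to 362 ± 8.03 CPM (SD, n = 2), its maturation factor Lmf1 fell by 0.42 and its inhibitor Angptl4 rose by 0.56 on the log2 scale. Caveolin 1 (Cav1), which binds Nos3 in caveolae, fell 2.12-fold, and the nitric oxide receptor subunit Gucy1a1 1.5-fold. Arhgap29, the partner of Rasip1, fell by 0.36 (-0.20 with the length trend removed, adjusted p = 0.019 in edgeR), while Rap1b rose by 0.53. The BMP target Id1 rose by 0.79 ± 0.04 (SE) and the plasminogen activator Plat by 0.29 ± 0.04.

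Of 18 further transcription factors, 6 fell (33.3%) and 2 rose (11.1%), beside 22.8% lower and 22.3% higher of all tested annotated ORFs. Klf2, the flow-responsive factor upstream of Nos3 and Thbd, fell 2.42-fold, from 14.8 ± 2.94 to 6.18 ± 0.123 CPM (SD, n = 2). Prox1, the lymphatic master factor that cardiomyocytes also express, fell 1.99-fold, Foxo1 by 0.60, Mef2c by 0.46 and Ets2 by 0.35 on the log2 scale. Epas1 (HIF-2α) rose by 0.36 and Foxc2 by 0.60, the latter on few counts and without a call in DESeq2 (adjusted p = 0.12). Of 17 junction and adhesion genes, many of which other cells use as well, 8 rose (47.1%) and 3 fell (17.6%). The inducible leukocyte receptor Vcam1 fell 3.40-fold and the sialomucin Podxl 1.54-fold, and β-catenin (Ctnnb1) 1.12-fold. P-selectin (Selp) rose 2.25-fold, from 27.4 ± 3.64 to 61.3 ± 0.873 CPM, Icam1 1.28-fold, Tjp1 1.32-fold and α-catenin (Ctnna1) 1.19-fold. With the length trend removed, Tjp1 stood at 0.62 in place of 0.40 and Ctnnb1 at -0.08 in place of -0.16 on the log2 scale, and both were still called. Mcam rose 1.90-fold with 0.0446 counts per P-site.

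Another list of 20 genes enriched in endothelium, which shares none of the 37, was also chosen with earlier results of these data known. Of its 13 tested genes 7 fell (53.8%) and 0 rose in edgeR, with a median of -0.66. Of all tested annotated ORFs 22.8% were lower and 22.3% higher. Single genes of this and the following marker lists were picked after their values were seen. The tetraspanin Tspan18 fell from 55.5 and 60.4 to 26.2 and 22.5 CPM, connexin 37 (Gja4) by 1.26 on the log2 scale (not called in DESeq2, adjusted p = 0.065) and the guanine nucleotide exchange factor Rapgef5 by 0.66. Their sum was 141 and 150 CPM in control and 90.0 and 85.3 CPM in PE, Fabp4 had 0 counts and Cd93 was not listed. Of 8 endocardial markers, 3 fell and 1 rose, with a median of -0.28. The natriuretic peptide clearance receptor Npr3 fell by 0.40. The marker that rose was Tmem100, by 2.04 ± 0.59 (log2, SE), on 4 to 20 counts per library. DESeq2 did not call Tmem100 (adjusted p = 0.08). The lymphatic markers did not move as a block: Prox1, Ccl21 and Lyve1 fell by 0.99, 0.80 and 0.75, whereas Flt4, Reln and Pdpn rose by 1.55, 1.17 and 0.51. Stab2 was not tested, at 0 to 8 counts per library.

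Markers of the other cells a heart culture can hold moved alongside. Of 11 tested fibroblast markers, 8 fell and 1 rose, where 22.8% of all tested annotated ORFs were lower and 22.3% higher. The sum of the 12 listed was 35050 and 35325 CPM in control and 21214 and 21445 CPM in PE, a ratio of 0.606. Among the 12, Col1a2 had 2 counts in all beside 158850 P-sites. Of 13 pericyte and smooth muscle markers, 8 fell and 4 rose, with a sum of 5178 and 5224 CPM in control and 7030 and 7142 CPM in PE. Desmin (Des), which cardiomyocytes also express, made the PE sums the higher ones: without it the sums were 3011 and 3048 CPM in control and 2943 and 2976 CPM in PE. Both sums without a gene were formed after the values were seen. Epicardial markers numbered 3 lower and 1 higher of 7, with sums of 257 and 279 against 192 and 187 CPM. The platelet factor Pf4, also made by macrophages, fell by 0.56, Gp1bb had 0 counts, and of 3 tested Schwann and neuronal markers 1 rose. The cardiomyocyte list had 9 lower and 4 higher of 14. The part of these cells in the endothelial values was not tested. The summed endothelial genes were at a ratio of 0.888 of PE to control, 0.840 without Eng and Ets1 and 0.828 without Flt4.

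**Figure D4:**
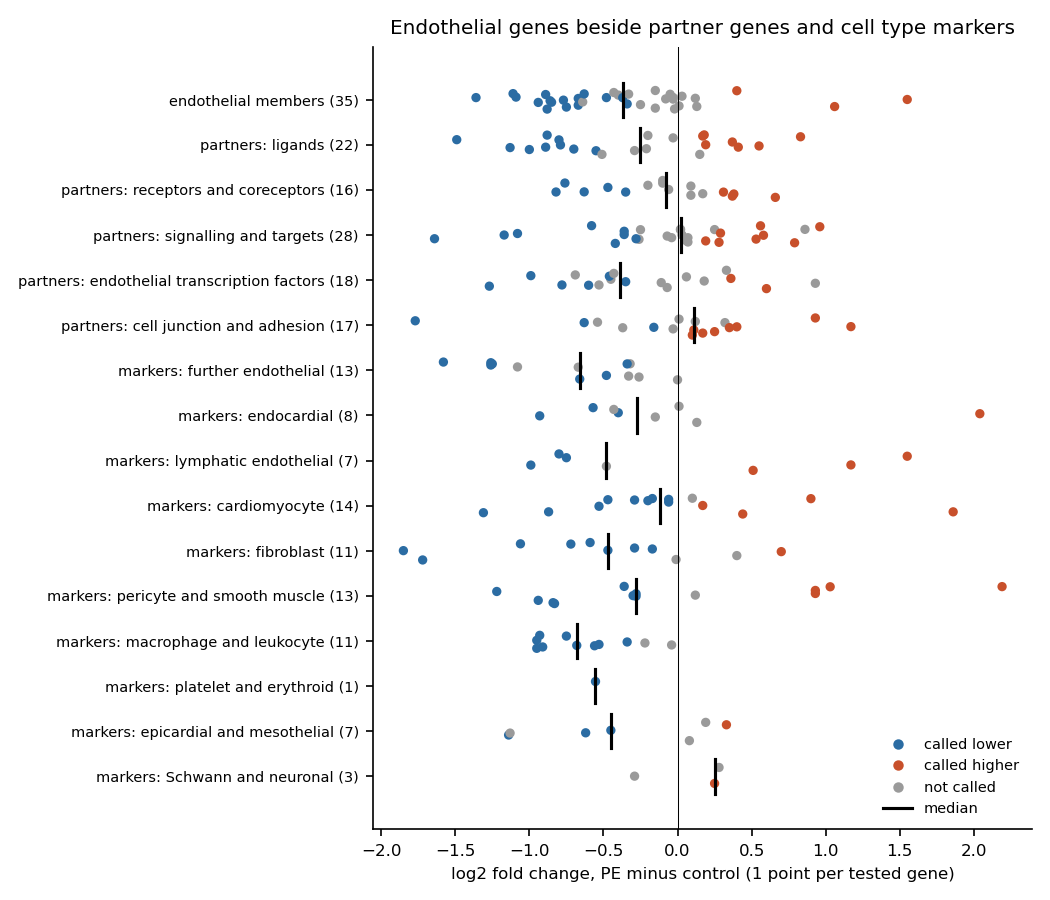
Log2 fold change of PE minus control for the tested genes of each list, 1 point per gene coloured by the edgeR call, with the number of genes in parentheses and a black bar at the median; some genes stand in more than 1 list. The medians were -0.37 for the 35 endothelial genes, -0.66 for further endothelial genes, -0.68 for macrophage and leukocyte markers and -0.11 for cardiomyocyte markers.

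Few other ORFs were listed on these genes, and 8 in all were found beside the annotated ORFs used. The upstream ORF of Egfl7 (264 nt, chromosome 3, 4034942 to 4036716) had 9 and 15 counts in control and 2 and 4 in PE, while the coding ORF of the same gene had 22 and 28 in control and 59 and 40 in PE. The counts of the 2 ORFs differed between groups in opposite directions. The upstream ORF did not reach the count filter. Without that filter its log2 fold change was -1.87 ± 0.78 (SE; adjusted p = 0.048, edgeR), and the difference between the 2 ORFs was not tested. Upstream ORFs of Tek, Fli1 and Sox18 had 10, 7 and 11 counts over all libraries, too few to compare.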

How the data were processed

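Per the labels' protocols, cells were lysed with cycloheximide, digested with RNase I, and footprints were gel-selected and sequenced. The genome build Rnor_6.0 and the tools STAR 2.4.2a, Bowtie 1.1.2 and cutadapt 2.0 are named in the submitters' processing notes. Which program called and counted ORFs is not given in the sources used here. For 18847 ORFs the authors deposited raw counts. Their annotation table holds, per the file headers, a DESeq2 comparison (log2 fold changes, p-values, score columns for error and statistic), a normalized mean signal and whole numbers of P-sites per frame with no library named.

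Groups came from sample titles; the treatment protocol text names PE for all 4 libraries, while the treatment labels call the controls untreated. Counts were filtered with filterByExpr, TMM-scaled and tested with edgeR 4.0.16 (R 4.3.3; robust quasi-likelihood, PE against control, no block), adjusted over 12609 ORFs. SE is the log2 fold change over the square root of F. CPM and RPKM use TMM-scaled totals and ORF length. The script was tested on simulated data. The common biological coefficient of variation was 2.18%, so small changes pass. Alternatives included DESeq2 1.42.0. Named were all members, and of each partner list up to 5 called genes per direction with a mean count of at least 20. A partner gene that this rule names is not reported here. The members and lists were chosen with earlier results of these data known. Promoters are from RefSeq (GRCr8), matched by symbol for 21 of 37 genes, the first listed start each. Per-sample columns left unused numbered 0.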

Additional observations from a re-analysis of the deposited data

Results flagged for a closer look

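The 5 ORFs below were singled out because the authors' pooled P-site columns, which enter no comparison, hold signal where the count table has 0 in every library. Robo4, a guidance receptor of endothelium, had 258 P-sites on its annotated ORF of 2883 nt. A shorter annotated ORF of Kdr (2973 nt) had 4669 P-sites and one of Cd34 (987 nt) 3062, and both overlap the longer ORFs whose counts were used above. An unannotated ORF of 1797 nt within Tie1 had 350 P-sites, and an internal ORF of 57 nt in Sox18 had 50. P-sites are given without library labels, so none of these can be compared between PE and control. The cause of the missing counts was not tested.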

How the results depend on the processing

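Each of the 35 tested genes was refitted under 11 alternatives, chosen with earlier results of these data known, which gave 385 values, of which 356 kept direction and side of the threshold. Of the 19 called genes, 15 kept their call under all 11 and 0 changed sign in any; the exceptions were Egfl7, Esm1, Lyve1 and Thbd. Over all ORFs, DESeq2 called 1724 higher and 1721 lower against 2696 and 2690 by edgeR, and among the endothelial genes 1 higher (Flt4) against 3. Asking also for a 1.5-fold change left 965 and 1158 ORFs, and 7 and 20 partner genes against 29 and 31; it does not bear on the median. When a library was left out, the median over all 35 tested endothelial genes ran from -0.38 to -0.33. Genes near 0 changed sign without a call. With the length trend removed Tek was at 0.12, Eng at 0.04, Vwf at 0.16 and Apln at -0.11, and with library totals Clec14a was at -0.02 and Apln at -0.04. Leaving out a library, Tek ran from -0.09 to 0.06, Clec14a from -0.02 to 0.06, Cd34 from -0.19 to 0.11, Apln from -0.06 to 0.09, Gpihbp1 from -0.37 to 0.32 and Icam2 from -0.18 to 0.07. The cause was not tested. With the replicate number as a block, 2721 ORFs were higher and 2714 lower, and the endothelial counts stayed at 3 and 16. Over all tested ORFs, the deviations of same-numbered libraries had a correlation of -0.0090. ORFs with few counts weigh as much as others in it, so it cannot decide whether the numbers pair the libraries. Low counts limit Sox17, Aplnr, She and Gpihbp1, with SEs of 0.35 to 0.42. In 2 alternatives added after seeing the data, the PE to control ratio of summed markers went from 1.12 to 0.924 without Nppa (cardiomyocyte) and from 1.36 to 0.977 without Des (pericyte and smooth muscle).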

Other observations

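Ratios within a library do not depend on its scaling, and a few were formed after the values above were seen. Flt4 footprints were 0.220 and 0.229 of those on Cdh5 in the control libraries and 1.28 and 1.25 of them in the PE libraries. Against Kdr the Flt4 ratio went from 0.788 and 0.796 to 3.07 and 3.41, and against Flt1 from 0.760 and 0.750 to 1.98 and 2.09. Tek over Tie1 was 1.1 and 1.39 in control and 2.22 and 1.99 in PE. Angpt1 over Angpt2 was 1.40 and 1.58 in control and 3.94 and 3.25 in PE. In each ratio the control and PE libraries did not overlap. Kdr and Tie1 had 0.276 and 0.602 counts per P-site, against 1.15 for Flt4 and 1.16 for Tek. The ratios over Kdr and Tie1 therefore do not give relative levels of the genes. All these ratios are descriptions of chosen pairs and carry no test.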
